A study of Medicago truncatula with 18 samples.

Results

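Leaves of short-day (SD) grown Medicago truncatula, a model legume, were compared between 2 h and 4 h after lights on (ZT2 and ZT4, where ZT counts the hours from lights on). The comparison rests on 6 of the 18 RNA-Seq libraries of the series, chosen by their labelled photoperiod and timepoint, with 3 libraries at each time. All plants were accession Jester, were vernalised as germinated seeds, and were kept in SD of 8 h light and 16 h dark throughout, and each library held the first trifoliate leaf of 2 different plants, pooled. The ZT2 libraries came from experiment 1, in which plants were 13 days old and libraries were made with the ScriptSeq Complete Kit (Plant). The ZT4 libraries came from experiment 2, in which plants were 15 days old and libraries were made with TruSeq Stranded mRNA Kits. Time of day is therefore confounded with experiment, plant age and library kit, and for every change reported here these cannot be told apart. Long-day (LD) plants of the same experiments (16 h light and 8 h dark after a shift from SD) gave a parallel comparison with the same confounding, in which the LD plants at ZT4 had also spent more days in LD. SD libraries of experiment 1 at ZT0 gave the preceding step within 1 experiment and kit.

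The plant circadian clock is a network of transcriptional repressors whose transcripts peak in sequence over the day. In Arabidopsis, LHY is high at dawn and declines through the morning, the pseudo-response regulators (PRR) follow one another from morning to evening, and the evening complex of ELF3, ELF4 and LUX comes last. The photoperiod pathway reads this timing with light: FKF1 and GI act together to remove the CDF repressors late in a long day, and photoreceptors adjust the stability of the CONSTANS-like proteins downstream. Transcripts of clock and photoperiod genes can thus change over the morning.

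The deposited estimated counts of the 6 libraries summed to between 18164333 and 19238383 at ZT2 and between 20690658 and 21571177 at ZT4. Light harvesting and photosystem transcripts summed to 16342 to 17807 TPM (transcripts per 1000000, a level per transcript length) in the ZT2 libraries and 18059 to 18223 at ZT4, and Rubisco small subunit and activase transcripts to 84238 to 96631 and 78226 to 80223. The nodule genes summed to 3.597 to 5.72 TPM at ZT2 and 1.45 to 2.57 at ZT4. In bulk leaf samples fewer cells of a type and less RNA per cell cannot be told apart. In the libraries of experiment 1, 7.41% of the counts of SD ZT2 replicate 2, 3.54% of replicate 3 and 1.89% of replicate 1 fell on 43 genes that varied together between replicates, against 0.262 to 0.364% in the SD ZT4 libraries. No description was held for any of these 43 genes. Results that rest on them are given with this share in view below.

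Of 28537 genes tested, 10575 (37.1%) differed between ZT2 and ZT4 in SD by edgeR's quasi-likelihood test with a Benjamini-Hochberg adjusted p under 0.05, 5775 (20.2%) higher at ZT4 and 4800 (16.8%) lower. Changes are given as log2 values, positive where ZT4 was higher, from counts scaled by TMM. Most changes were small, since 60.8% of the genes called had a log2 change under 1 in size, and the median size among them was 0.80. Genes that also changed by more than 1 on the log2 scale (2-fold) with a mean normalised count above 10 are called DE here, and numbered 3221 (11.3%), of which 1777 (6.23%) rose and 1444 (5.06%) fell. The libraries of both times did not overlap in 3198 of the DE genes, which follows largely from choosing DE genes on these same libraries. They did not overlap in 51.2% of all genes tested. Rises outnumbered falls past 4-fold, with 422 DE genes higher and 369 lower at ZT4, and falls outnumbered rises past 8-fold (157 against 110) and 16-fold (68 against 31). Of these falls, 33 past 8-fold and 20 past 16-fold were of the 43 genes that vary together and are not separate observations, and without them 124 falls stood against 110 rises past 8-fold and 48 against 31 past 16-fold. Falling calls took a larger share of the genes at high levels, with 32.6% of the highest of 5 equal groups by mean normalised count lower and 29.8% higher, compared with 15% and 20.3% in the lowest. The split of all calls depended on scale, as 54.6% were higher at ZT4 in this fit, 48.4% with upper-quartile scaling and 64.8% in limma on log2(TPM + 1), which called 10000 genes.

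Most clock genes rose. Of 18 clock genes in the candidate list of the study, 17 were tested, and 13 rose, 3 fell and 1 did not pass. The share called was 94.1%, against 37.1% of all genes tested, and the median log2 change 1.31 against 0.06. MtLHY, the dawn-phased MYB repressor, was the main exception. It had 25403, 26196 and 24403 normalised counts in the ZT2 libraries and 4091, 3878 and 3288 in the ZT4 libraries (-2.76 ± 0.17 (SE), edgeR adjusted p = 1.6e-10). All ZT4 values lay far below all ZT2 values, and the ZT0 mean of 62212 was higher still. MtLUXb and MtELF3b, members of the evening complex, fell by less than 1 on the log2 scale (-0.30, edgeR adjusted p = 0.0303; and -0.41, edgeR adjusted p = 0.0045). The MtLUXb call was lost in 7 of 18 alternative analyses.

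The pseudo-response regulators, which repress the morning genes in Arabidopsis, all rose. MtPRR59a counts were 242, 216 and 361 at ZT2 and 2195, 2288 and 2611 at ZT4 (3.12 ± 0.17 (SE), edgeR adjusted p = 3.3e-11), from a ZT0 mean of 20.7. For MtPRR59b they went from 317, 333 and 347 to 1782, 1794 and 1824 (2.44 ± 0.11 (SE), edgeR adjusted p = 2.9e-12). The third copy, MtPRR59c, rose less, from 1239, 1236 and 1366 to 2977, 2988 and 2889 (1.20 ± 0.15 (SE), edgeR adjusted p = 1.6e-06). In none of the 3 genes did the groups overlap, as was so for 51.2% of all genes tested. MtPRR37b stood at 1252, 1314 and 1468 at ZT2 and 3700.0, 3992 and 3814 at ZT4 (1.51 ± 0.12 (SE), edgeR adjusted p = 3.7e-09). MtPRR37a, which had the higher level per length of that pair at a mean of 73.1 TPM against 40.4, went from 3246, 3033 and 3542 to 6634, 6700.3 and 6426 (1.01 ± 0.15 (SE), edgeR adjusted p = 2.6e-05).

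Evening-phased clock genes were also higher at ZT4, at low levels. MtTOC1a, whose Arabidopsis counterpart represses morning genes at dusk, had 23.4, 28.4 and 30.6 counts at ZT2 and 125, 123 and 165 at ZT4 (2.32 ± 0.17 (SE), edgeR adjusted p = 4.1e-10), and MtTOC1b 82.4, 70.4 and 78.2 and 182, 202 and 222 (1.39 ± 0.13 (SE), edgeR adjusted p = 4e-08). MtELF4 rose from 12.3, 12.5 and 11.3 to 87.5, 93.6 and 99.8 (2.95 ± 0.26 (SE), edgeR adjusted p = 5.4e-09). The change in MtELF3a was of like size, from 20.05, 21.6 and 15.9 to 131, 123 and 137 (2.76 ± 0.26 (SE), edgeR adjusted p = 1.3e-08), unlike the slight fall of its paralogue MtELF3b. The groups did not overlap in MtELF4 or MtELF3a, as was so for 51.2% of all genes tested. Of the ELF4-like genes, Medtr4g125590 rose by 1.998 from 10.02, 4.54 and 10.2 counts (edgeR adjusted p = 0.00021) and Medtr8g020200 by 0.70 (edgeR adjusted p = 0.00061), while Medtr2g041310 did not pass (0.36, edgeR adjusted p = 0.0992). The ELF3-like gene Medtr8g015480 rose by 1.31 (edgeR adjusted p = 7.2e-05), and the other one, Medtr8g015470, had 0 counts in all 6 libraries. MtLUXa was near the floor of detection at 10.02, 11.4 and 12.5 counts and rose to 20.3, 28.4 and 19.95 (1.01 ± 0.35 (SE), edgeR adjusted p = 0.0236), a call lost in 3 of 18 alternatives.

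**Figure D1:**
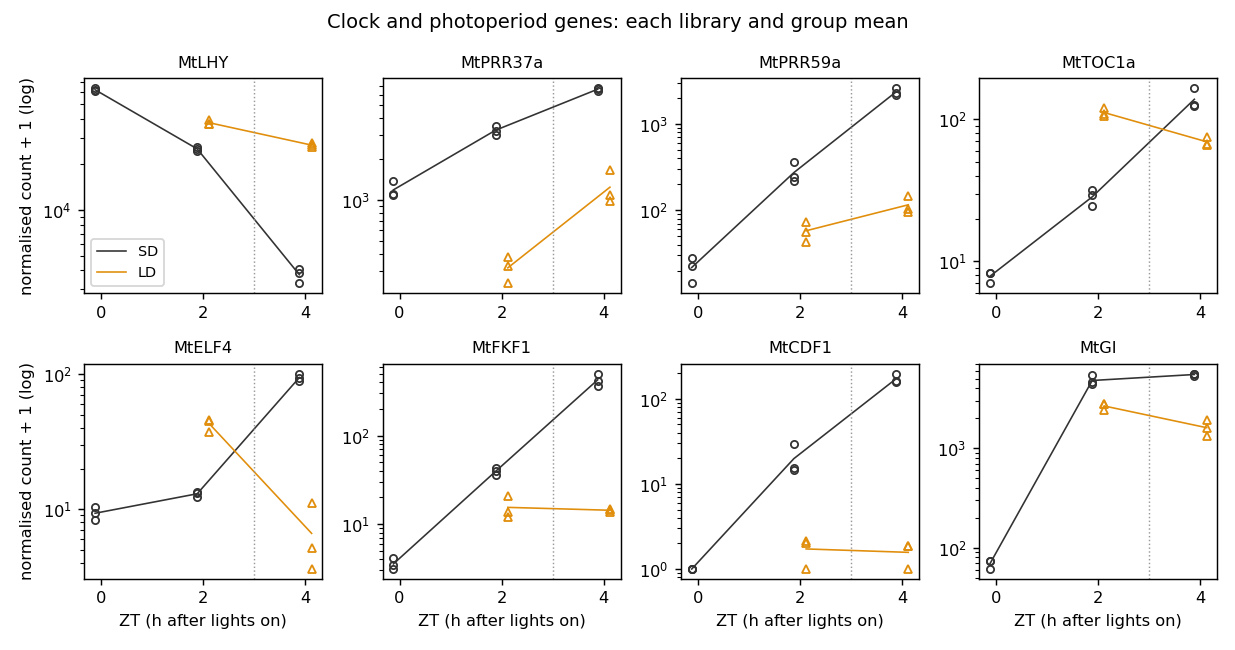
Normalised counts plus 1 (y axis, log scale) of 8 clock and photoperiod genes by hours after lights on (x axis). Circles are SD libraries and triangles LD libraries, lines join group means, and the dotted line separates experiment 1 (ZT0 and ZT2) from experiment 2 (ZT4). In SD, MtLHY falls at each step while MtPRR59a, MtTOC1a, MtELF4, MtFKF1 and MtCDF1 rise between ZT2 and ZT4, and MtGI is nearly level after ZT2.

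FKF1, a blue-light receptor F-box protein, and CDF1, a Dof factor that its Arabidopsis counterpart targets, were among the steepest rises of the photoperiod genes. The primers of the study that amplify their transcripts are shown, since these are the sequences by which both can be measured independently. The study did so by RT-qPCR (quantitative PCR of reverse-transcribed RNA) in a separate time course. It reports that in SD both genes rose from a low at ZT0 to a peak later in the day. Those measurements were not re-analysed here. The pair for MtPP2A, which the study used as reference gene for MtCDF1, is added. For MtFKF1 the study used the tubulin gene Medtr7g089120, whose pair is not shown. Each is written 5′ to 3′.
MtFKF1 forward: tcaactgggtatcgtgctca
MtFKF1 reverse: aacgactggatccaccaaag
MtCDF1 forward: tgtggtacagcatggagactc
MtCDF1 reverse: agactgatcaacggtgttagca
MtPP2A forward: gtgttttgcttccgccgtt
MtPP2A reverse: ccaaatcttgctccctcatctg

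MtFKF1 counts were 34.5, 38.6 and 41.9 at ZT2 and 366, 416 and 499.7 at ZT4 (3.47 ± 0.20 (SE), edgeR adjusted p = 1.7e-11), an 11.1-fold difference of means that continued a rise from a ZT0 mean of 2.53. MtCDF1 had 0 counts in all 3 ZT0 libraries, 14.5, 13.6 and 28.3 at ZT2 and 161, 155 and 195 at ZT4 (3.17 ± 0.28 (SE), edgeR adjusted p = 6.3e-08). MtGI, the partner of FKF1, was already at 4415, 4598 and 5409.8 counts at ZT2 and stood at 5359, 5601 and 5609.7 at ZT4, a difference that did not pass (0.20, edgeR adjusted p = 0.183). Its groups overlapped, after a rise from a mean of 68.2 at ZT0. MtZTL, a relative of FKF1 that sets clock period in Arabidopsis, was 1.505-fold lower at ZT4 (-0.59, edgeR adjusted p = 5.5e-06). MtPP2A had 1132, 1213 and 1225 counts at ZT2 and 1318, 1336 and 1435 at ZT4 (0.20, edgeR adjusted p = 0.0535), and did not pass here but did in 6 of 18 alternatives. The other reference gene, the tubulin beta-1 chain Medtr7g089120, was 1.29-fold higher at ZT4 (0.36, edgeR adjusted p = 0.0346), with its call lost in 8 of 18.

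All 14 CDF genes were tested, and 1 rose, 8 fell and 5 did not pass (64.3% called, against 37.1% of all genes tested, of which 20.2% were higher and 16.8% lower), with a median of -1.26 against 0.06 over all genes. MtCDF5 went from 151, 162 and 154 counts at ZT2 to 6.19, 8.25 and 3.47 at ZT4 (-4.69 ± 0.39 (SE), edgeR adjusted p = 6.6e-11), from 207 at ZT0, and no ZT4 library came near the ZT2 range. Of the 8 falls 4 were DE, that of MtCDF5 among them, and the other DE falls were smaller in size and in genes with more counts than those that follow. The 3 next largest falls after MtCDF5 were of genes with few counts, and none of these was DE. MtCDFf had 13 counts over the ZT2 libraries and 1 over the ZT4 libraries, a ratio of 16.5 with a 95% counting interval of 2.48 to 701. MtCDFe had 17 and 3 (ratio 7.19, interval 2.08 to 38.3), and MtCDF2 9 and 1 (ratio 11.4, interval 1.58 to 500.3). These intervals, by the exact Clopper-Pearson method, cover counting error only.

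Among photoreceptors, 5 of 6 were tested, and 3 rose, 1 fell and 1 did not pass (80% called, against 37.1% of all genes tested). None of them reached a 2-fold change. MtPHYA, the far-red and red light receptor that is abundant in the dark, had 1245, 1326 and 1649 counts at ZT2 and 2594, 2535 and 2498 at ZT4 (0.85 ± 0.09 (SE), edgeR adjusted p = 4e-07). MtPHYB, the main red light receptor in light-grown plants, moved the other way, from 819, 899 and 885 to 442, 489 and 448 (-0.92 ± 0.08 (SE), edgeR adjusted p = 1.9e-08). The groups did not overlap in both genes, as was so for 51.2% of all genes tested. The blue-light receptors MtCRY2A (1149.5, 1081 and 1205 against 2205, 2153 and 2105; 0.91, edgeR adjusted p = 2.6e-08) and MtCRY2B (0.73, edgeR adjusted p = 3e-05) rose, and MtCRY1 was 1.13-fold higher without passing (0.18, edgeR adjusted p = 0.0971). MtPHYE had 0 counts in all 6 libraries. Of the 4 COP1 and SPA1-like genes, which encode partners in light signalling, 1 rose, 2 fell and 1 did not pass (75% called). MtCOP1, the E3 ligase that marks light-signalling factors for breakdown, fell by 0.59 (edgeR adjusted p = 8e-06), as did the SPA1-like gene Medtr5g009530 (-0.63, edgeR adjusted p = 2e-07), but a second SPA1-like gene, Medtr8g027985, rose from 1451, 1469.9 and 1679 to 3147, 3166 and 3192 (1.05, edgeR adjusted p = 1.9e-07), after a ZT0 mean of 52.2.

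The PIF genes encode factors that phytochromes bind and remove in light. None of 8 tested rose, 5 fell and 3 did not pass (62.5% called, against 37.1% of all genes tested). MtPIF3a fell the most, from 1526, 1359 and 1587 counts to 303, 250.4 and 260.3 (-2.46 ± 0.21 (SE), edgeR adjusted p = 1.9e-08), from a mean of 3514 at ZT0. The fall of MtPIF6, at 28.96, 23.8 and 17.00 and 11.5, 7.34 and 11.3 counts (-1.20, edgeR adjusted p = 0.033), was lost in 6 of 18 alternatives. Among 14 CBL genes (CIB/BEE-like bHLH factors) 3 rose, 4 fell and 7 did not pass (50% called). MtCBL11 fell from 267, 277 and 274 to 40.6, 40.4 and 35.6 (-2.81 ± 0.18 (SE), edgeR adjusted p = 1.2e-10), and MtCBL1 rose from 404, 294 and 273 to 1507, 1292 and 1317 (2.08 ± 0.17 (SE), edgeR adjusted p = 7.1e-09). MtCBL2 also rose (1.64, edgeR adjusted p = 1.8e-08). The ZT2 values of MtCBL1 and MtCBL2 were themselves below their ZT0 means of 965 and 1645.

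Families with a B-box or CCT domain, CONSTANS among them, showed the most extreme changes of the candidates in both directions. Of 11 CONSTANS-like (COL) genes, 4 rose, 2 fell and 5 did not pass (54.5% called, against 37.1% of all genes tested). MtCOLe was almost absent at ZT2 (2.23, 0.00 and 3.401 counts) and had 61.9, 52.3 and 78.9 at ZT4 (5.01 ± 0.64 (SE), edgeR adjusted p = 7.6e-09). MtCOLk rose from 284, 261 and 235 to 1242, 1258 and 1156 (2.23 ± 0.16 (SE), edgeR adjusted p = 1.1e-09), having been at 992 at ZT0. MtCOLb, with a higher level per length (122 TPM against 21.6 for MtCOLk), was 2.004-fold lower at ZT4 (-1.003, edgeR adjusted p = 6e-09). Of 11 other tested CCT-domain B-box genes, 4 rose and 7 fell, so that all passed, against 37.1% of all genes. Medtr4g046640 dropped from 36.8, 66.97 and 57.8 counts to 1.77, 1.83 and 0.87 (-5.07 ± 0.89 (SE), edgeR adjusted p = 6.4e-07). Medtr4g008050, a better measured gene, had means of 602 ± 7.28 at ZT2 and 149 ± 3.74 at ZT4 (SD of replicates, n = 3). Its change was -2.01 (edgeR adjusted p = 7.5e-08), with a mean of 62.97 at ZT0. Medtr2g073370 had 0 counts at ZT0, 23.4, 31.8 and 46.5 at ZT2 and 82.2, 122 and 134 at ZT4 (1.73, edgeR adjusted p = 0.00024). Medtr1g109350 rose by 2.08 (38.99, 31.8 and 32.9 to 167, 144 and 128; edgeR adjusted p = 1.1e-06).

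Of the 13 CCT motif family (CMF) genes tested, which lack the B-box, 1 rose, 3 fell and 9 did not pass. The share called, 30.8%, was below the 37.1% of all genes tested. MtCMF10 had 1047, 984 and 918 counts at ZT2 and 67.2, 59.6 and 78.9 at ZT4 (-3.84 ± 0.14 (SE), edgeR adjusted p = 2e-13). MtCMF9 had 707, 741 and 939.8 and 49.5, 44.9 and 61.6 (-3.93 ± 0.19 (SE), edgeR adjusted p = 2.3e-12). Both were 14.3- to 15.3-fold lower at ZT4, after ZT0 means of 201 and 293 that were below those at ZT2. MtCMF12 had 22 counts over the ZT2 libraries and 3 over those at ZT4, a ratio of 9.30 with a 95% counting interval of 2.79 to 48.5.

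In the remaining candidate classes most changes stayed below 2-fold. Of 8 AP2-class genes, which include repressors of FT in Arabidopsis, 2 rose, 5 fell and 1 did not pass (87.5% called, against 37.1% of all genes tested). MtTEM2 went from 1292, 1203 and 1352 to 590.3, 599 and 643 (-1.07, edgeR adjusted p = 2.5e-05), and MtTOE1a from 33.4, 24.97 and 39.7 to 73.3, 76.1 and 78.1 (1.21, edgeR adjusted p = 0.00037). Of 6 FE and NF-Y genes, 2 rose and 2 fell (66.7% called). The largest change was that of the NF-YB-like gene Medtr5g095740, at 173, 133 and 107 and 486, 522 and 431 counts (1.80, edgeR adjusted p = 2.1e-08). Of 6 tested TPL-like co-repressor genes none rose and 3 fell (50% called), led by Medtr4g009840 (-0.94, edgeR adjusted p = 2.6e-07). Of the 12 E1, FT-like and MADS-box genes only 7 had enough counts to be tested, and 28.6% of these were called. MtFULb, a MADS-box factor, fell from 26.7, 30.6 and 29.5 to 10.6, 5.503 and 6.07 (-1.95, edgeR adjusted p = 0.00105), and MtFTa2 had 16.7, 13.6 and 20.4 and 34.5, 33.02 and 29.5 (0.93, edgeR adjusted p = 0.0318), a call lost in 8 of 18 alternatives. Over the whole candidate list, 127 genes were tested, and 36 rose, 47 fell and 44 did not pass, with 44 DE. The share called, 65.4%, compares with 37.1% of all genes, and with shares of 35.3% in the lowest and 62.4% in the highest of the 5 groups by level.

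**Figure D2:**
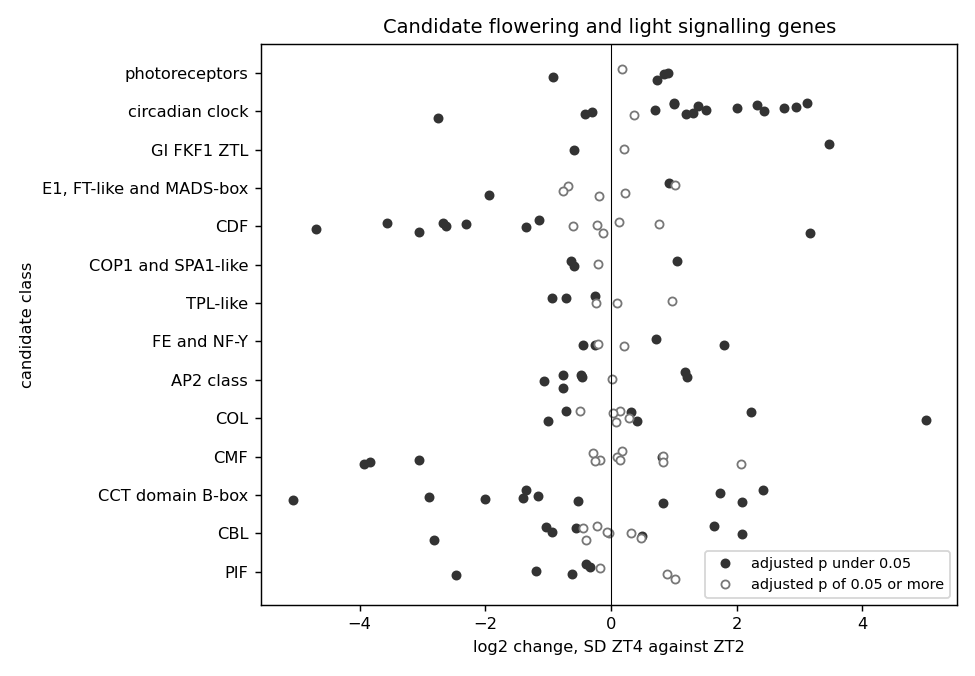
Log2 change from ZT2 to ZT4 in SD (x axis) of each tested candidate gene, by class (y axis, points spread vertically for legibility). Filled points passed an adjusted p under 0.05. The clock class lies mostly right of 0, with 13 rises, and the CDF and PIF classes mostly left, with 8 and 5 falls.

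Beyond the candidates, the 8 most extreme rises among DE genes with a description and separate groups included genes of transport and specialised metabolism. Medtr3g462220, described as a putative maternal effect embryo arrest protein, had 4.46, 2.27 and 3.401 counts at ZT2 and 590.3, 565 and 705 at ZT4, a 184-fold difference (7.47 ± 0.65 (SE), edgeR adjusted p = 4.7e-12). Medtr4g025970, a family 71 cytochrome P450, had 3 counts over the ZT2 libraries and 369 over those at ZT4, a ratio of 96.99 with a 95% counting interval of 32.9 to 472. Medtr6g039440, a sesquiterpene synthase, rose from 25.6, 15.9 and 27.2 to 1249.5, 1050.2 and 1271 (5.69 ± 0.30 (SE), edgeR adjusted p = 1.7e-12). Every ZT4 library lay above every ZT2 library in each of them, as the choice of these genes required. Medtr7g009930, an aldose 1-epimerase family gene, went from 14.5, 6.81 and 6.802 to 318, 340.3 and 342 (5.13 ± 0.31 (SE), edgeR adjusted p = 3.6e-12). The transporter genes Medtr3g099150 (nodulin-like, major facilitator) and Medtr3g008920 (a major intrinsic protein, the family of aquaporins) rose 24.6- and 23.1-fold, the latter from 31.2, 37.5 and 48.7 to 835, 892 and 988 (4.53 ± 0.16 (SE), edgeR adjusted p = 1.1e-13). The last of the 8, apart from MtCOLe, was Medtr5g015680, a BTB/POZ and TAZ domain gene, at 11.1, 11.4 and 17.00 and 263, 296 and 331 (4.48 ± 0.27 (SE), edgeR adjusted p = 9.1e-12).

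The most extreme described fall was that of Medtr2g022700, a gene like glucose-6-phosphate/phosphate translocators, which move sugar phosphate across the plastid envelope. It had 640.5, 519 and 719.9 counts at ZT2 and 1.77, 2.75 and 3.47 at ZT4, a 235-fold difference (-7.81 ± 0.64 (SE), edgeR adjusted p = 1.1e-11), and 0 counts at ZT0, so that it was high at ZT2 alone in SD. Medtr1g087920, an ethylene response factor, fell from 421, 541 and 652 to 23.9, 22.01 and 28.6 (-4.43 ± 0.20 (SE), edgeR adjusted p = 6.1e-13), again after a lower ZT0 mean of 79.2. The thaumatin family gene Medtr5g010635 had 150.4, 158 and 173 and 3.53, 6.42 and 13.01 (-4.36 ± 0.68 (SE), edgeR adjusted p = 1.5e-06). Medtr1g063950, a SAUR-like auxin-responsive gene, had 55 counts over the ZT2 libraries and 2 over the ZT4 libraries (ratio 34.9, 95% counting interval 9.21 to 295), and Medtr0024s0170, a WSD1-like acyltransferase, 63 and 3 (ratio 26.6, interval 8.71 to 133). The ZT2 libraries of the last gene were uneven, at 25.6, 36.3 and 9.07 counts. Without regard to description, the extremes were Medtr4g026030, with 0 counts at ZT2 and 47.7, 57.8 and 67.7 at ZT4, at least 17.1-fold higher against a floor of 3 counts per library, and Medtr3g016290, with 214, 152 and 162 at ZT2 and 0 at ZT4, at least 65.96-fold lower.

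Some genes were seen at only 1 of the times. In SD, 74 genes had at least 10 counts in each ZT4 library and at most 3 in each ZT2 library, and 33 genes the reverse. Such genes were weakly expressed, and none had a mean above 175 counts in the libraries where it was seen. These counts were not scaled for library size, and the SD ZT4 libraries were larger, with a median total of 21516319 against 18387255 at ZT2. The part of library size in these numbers was not tested. In LD the same rule gave 18 and 15 genes. Only 1 of those seen at ZT4 was common to SD and LD (1.35% of the SD and 5.56% of the LD genes), against 7 of those seen at ZT2 (21.2% and 46.7%).

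Starch and sugar genes changed in both directions, member by member. The lists that follow were drawn by keyword from supplementary descriptions, which cover only genes that the study lists in its comparisons of LD with SD, made with these same SD libraries among others, and the candidate genes. Such genes were called more often here than genes at large: of 4389 tested genes with a description 54% were called, 29.1% higher and 24.9% lower, with a median of 0.03, and the counts of these lists are to be read against those shares. Of 26 starch and sucrose genes, 9 rose, 9 fell and 8 did not pass (69.2% called). The beta-amylases, which release maltose from starch, split: Medtr2g020240 fell from 1829, 1859 and 1925 to 159, 149.5 and 148 (-3.62 ± 0.13 (SE), edgeR adjusted p = 2e-13), continuing from a ZT0 mean of 9939, and Medtr2g089030 from 4429, 4277 and 4563 to 888, 902 and 759 (-2.38 ± 0.09 (SE), edgeR adjusted p = 4.1e-13), whereas Medtr5g013620 rose from 17.8, 22.7 and 19.3 to 273, 269.7 and 363 (3.91 ± 0.33 (SE), edgeR adjusted p = 2.8e-09). The alpha-glucan phosphorylase Medtr3g462340 rose 4.43-fold, from 2924, 3071 and 3996 to 14492, 14489 and 15263 (2.15, edgeR adjusted p = 3e-10), having had a mean of 154 at ZT0.

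Most flavonoid genes that passed were lower at ZT4. Of 35, 19 fell, 5 rose and 11 did not pass (68.6% called), with a median of -0.71 against 0.03 over the genes with a description, and their summed level was 1130.1 to 1274 TPM at ZT2 and 597 to 614 at ZT4. The flavonoid hydroxylase Medtr3g025260 had 1451, 2458 and 1180.1 counts at ZT2 and 85.7, 67.9 and 82.4 at ZT4 (-4.43 ± 0.23 (SE), edgeR adjusted p = 1.5e-11), and Medtr5g007713, of the chalcone and stilbene synthases that begin the pathway, 873, 1472 and 1048 and 68.04, 55.95 and 81.6 (-4.04 ± 0.22 (SE), edgeR adjusted p = 1.4e-11). Both had been low at ZT0, at means of 8.35 and 16.3, and were thus higher at ZT2 than at either other time. The highest ZT2 value of both was that of replicate 2, the library with the largest share of the 43 varying genes, and that share's part in the result was not tested. The cinnamate 4-hydroxylase Medtr5g075450, an earlier step of phenylpropanoid synthesis, fell 3.86-fold (-1.95, edgeR adjusted p = 1.2e-11). Not all members followed: the flavonol synthase Medtr5g048470 rose from 24.5, 35.2 and 40.8 to 103, 88.97 and 103 (1.55, edgeR adjusted p = 5.8e-05).

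Of 22 histone genes 12 fell, 1 rose and 9 did not pass (59.1% called, median -0.41). Of 27 DNA replication and cell division genes 9 fell, 2 rose and 16 did not pass (median -0.58), a share called of 40.7% that lies below the 54% of genes with a description and near the 37.1% of all genes. Most falls were under 2-fold, with 2 histone and 4 replication genes DE in that direction. A cyclin, Medtr7g089080, fell from 24.5, 32.9 and 27.2 to 1.77, 3.67 and 2.603 (-3.34, edgeR adjusted p = 3.4e-06), and the core histone gene Medtr4g071150 from 43.4, 71.5 and 63.5 to 25.6, 12.8 and 26.9 (-1.44, edgeR adjusted p = 0.00018). The linker histone genes Medtr1g070440 and Medtr1g070390 moved oppositely, by 1.42 and -1.06.

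Cell wall loosening genes held some of the widest opposite changes. Of 15, 4 rose, 5 fell and 6 did not pass (60% called). Expansin A10, Medtr5g041700, rose from 303, 335 and 312 to 2371, 2722 and 2774 (3.05 ± 0.12 (SE), edgeR adjusted p = 4.3e-13). The xyloglucan endotransglucosylase/hydrolase genes Medtr2g089140, at 618, 743 and 656 and 52.1, 56.9 and 52.9 (-3.64 ± 0.25 (SE), edgeR adjusted p = 2.7e-10), and Medtr3g084630, at 131, 210.0 and 186 and 8.84, 13.8 and 9.54 (-4.03 ± 0.53 (SE), edgeR adjusted p = 5e-07), fell. Of 16 auxin response genes 4 rose, 5 fell and 7 did not pass (56.2% called, near the share of genes with a description), and the AUX/IAA repressor Medtr2g101500 fell from 383, 359.8 and 349 to 85.7, 75.2 and 89.4 (-2.12, edgeR adjusted p = 1.7e-11).

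Photosynthesis genes changed little. Of 24 light harvesting and photosystem genes 13 rose, 1 fell and 10 did not pass (58.3% called), with a median of 0.24, and only the oxygen-evolving enhancer genes Medtr2g082580 (1.20, edgeR adjusted p = 1.9e-07) and Medtr5g041910 (1.05, edgeR adjusted p = 1.1e-07) were DE. Of 8 Rubisco small subunit and activase genes 1 rose, 4 fell and 3 did not pass (62.5% called), none of them DE. Of 37 organellar ribosomal protein genes 7 rose, 2 fell and 28 did not pass, a share called of 24.3%, against 54% of genes with a description. Heat shock and chaperone genes gave 6 rises, 5 falls and 12 that did not pass of 23 (47.8% called, below the 54% of genes with a description), and 2 of the rises and 2 of the falls were DE. The DE rises were those of the DnaJ-domain gene Medtr1g038430, from 51.2, 54.5 and 55.5 to 564, 547 and 611 (3.41 ± 0.16 (SE), edgeR adjusted p = 2.3e-12), and the peroxisomal small heat shock gene Medtr5g091960, 7.21-fold (2.85, edgeR adjusted p = 3.2e-09). Of 48 cytochrome P450 genes 18 rose and 6 fell (50% called), and of 58 disease resistance genes 15 rose and 10 fell (43.1% called), and both shares are below the 54% of genes with a description. Of 3 nodule genes tested, 1 fell, the leghemoglobin Medtr5g080400 at 12.3, 10.2 and 23.8 and 5.302, 1.83 and 6.07 counts (-1.77, edgeR adjusted p = 0.0236), a call lost in 3 of 18 alternatives.

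The most abundant rises, by mean TPM, included 3 described genes. The CP12-1 gene Medtr1g087030, a regulator that binds Calvin cycle enzymes in the dark, had 4985, 5267 and 5741 counts at ZT2 and 16241, 17653 and 18248 at ZT4 (1.71 ± 0.08 (SE), edgeR adjusted p = 7.3e-12). Medtr1g105480, a thiazole biosynthetic enzyme of thiamine synthesis, went from 12220.3, 13094 and 14832 to 51367, 52541 and 52823 (1.96 ± 0.10 (SE), edgeR adjusted p = 1.5e-11). Medtr7g015340, a RALF signalling peptide gene, rose 2.53-fold (1.34, edgeR adjusted p = 2.3e-10). All 3 had also been lower at ZT0, at means of 933, 2797 and 563. The remaining abundant rises, Medtr3g030860 (1.11, edgeR adjusted p = 9.3e-10) and Medtr2g079710 (2.77, edgeR adjusted p = 2e-13), had no description.

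The abundant falls had no descriptions, and 4 of the 5 belonged to the 43 genes that varied together between replicates. Medtr4g006070 counts were 46926, 205851 and 96127 in the ZT2 libraries and 8318, 5574 and 4763 in the ZT4 libraries (-4.23 ± 0.77 (SE), edgeR adjusted p = 0.00065). Replicate 2 was the highest and replicate 1 the lowest of the ZT2 libraries, and no ZT4 library reached the ZT2 range. Medtr3g035650 had 30169, 141669 and 63621 and 4183, 3118 and 2892 (-4.53 ± 0.80 (SE), edgeR adjusted p = 0.00056), and Medtr3g035635 and Medtr3g035620 the same order of libraries (-4.41, edgeR adjusted p = 0.00053; and -4.09, edgeR adjusted p = 0.00095). Of the 43 genes 39 fell and none rose, with a median of -3.97. Because they share the pattern, these are not separate observations. Their share of the counts was 0.42 to 1.25% in LD at ZT2 and 0.321 to 1.2% in LD at ZT4, and it was 1.88, 11.7 and 2.17% in SD at ZT0. The part of the library kit and of the leaf in these changes cannot be told apart. The exception among the abundant falls was Medtr4g071860, with 269683, 272487 and 251967 at ZT2 and 123500.1, 124544 and 115687 at ZT4 (-1.13 ± 0.08 (SE), edgeR adjusted p = 5.4e-10). With the 43 genes removed before scaling, 10562 genes were called and 3186 were DE.

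**Figure D3:**
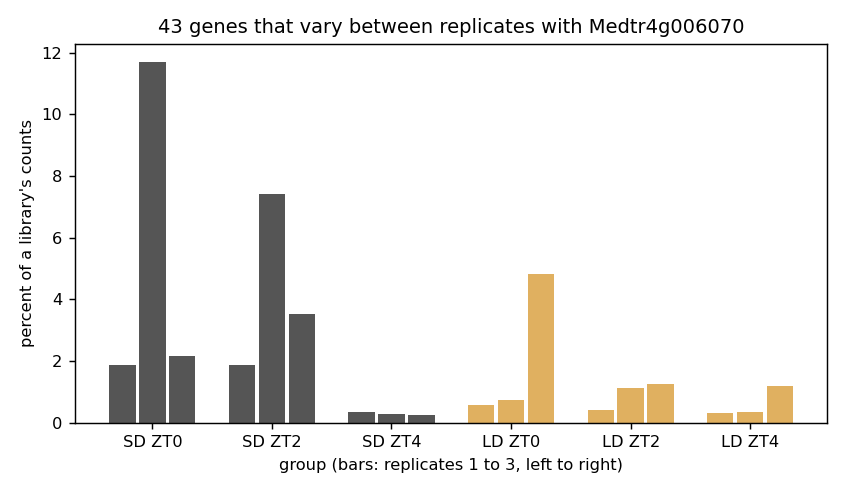
Percent of the counts of each library (y axis) that fell on the 43 genes whose counts vary between replicates with Medtr4g006070, by group (x axis, 1 bar a replicate). The SD ZT2 libraries hold 1.89, 7.41 and 3.54%, and the SD ZT4 libraries 0.364% or less.

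To see which SD changes were shared with LD plants of the same experiments, the change from ZT2 to ZT4 was set beside that in LD, which shares no library with it. In LD 6380 of 28747 genes (22.2%) passed, 2690 (9.36%) higher and 3690 (12.8%) lower. Among genes tested in both, 4297 were called in both photoperiods, which is 40.8% of the SD calls and 67.4% of the LD calls, and 89.9% of these moved in the same direction. Across 19017 genes the changes in SD and LD had a Pearson r of 0.51 and a Spearman rho of 0.50, as a description, since both share kits, experiments and ages. The difference between the SD and LD changes was then tested in the same fit, in which an effect of kit or experiment that is equal in both photoperiods cancels. It passed for 4430 of 30351 genes (14.6%), with 2631 (8.67%) more positive in SD and 1799 (5.93%) less. That split turned with scaling, from 59.4% positive here to 46.8% with upper-quartile scaling, 48.8% in a fit of the 12 libraries at ZT2 and ZT4 alone and 74.5% in limma on log2(TPM + 1). Of the SD calls 35% had a called difference, and 6856 did not.

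Several clock and photoperiod genes changed differently in SD and LD by this test. MtELF4 rose in SD and fell in LD, where its mean went from 41.9 ± 4.98 to 5.64 ± 3.95 counts (SD of replicates, n = 3), and the changes differed by 5.80 (edgeR adjusted p = 1.9e-09). MtTOC1a also had opposite signs, with 2.32 in SD and -0.69 in LD (difference 3.01, edgeR adjusted p = 6.5e-09). For MtFKF1 the changes were 3.47 in SD and -0.10 in LD (difference 3.57, edgeR adjusted p = 1.6e-06), and for MtELF3a 2.76 and -0.25 (difference 3.01, edgeR adjusted p = 1.4e-06). The fall of MtLHY was -2.76 in SD and -0.49 in LD, a difference that passed (edgeR adjusted p = 1.1e-06). MtPRR37a was the reverse case, rising by 1.98 in LD and 1.01 in SD (difference -0.98, edgeR adjusted p = 0.00477). MtCDF1 did not pass (3.48, edgeR adjusted p = 0.15) and its LD libraries held at most 1.16 counts at ZT2 and 0.87 at ZT4.

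**Figure D4:**
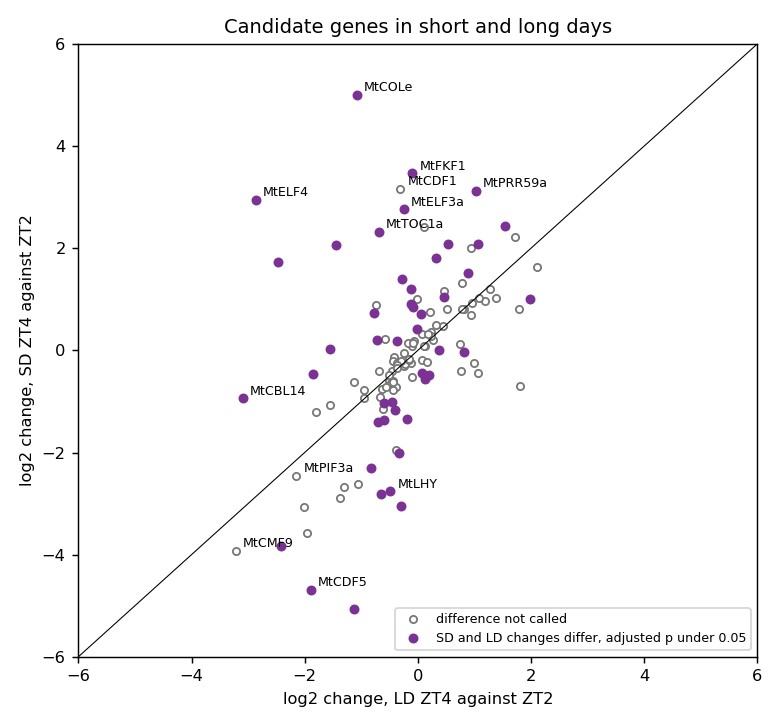
Log2 change from ZT2 to ZT4 in SD (y axis) against that in LD (x axis) of each candidate gene tested in both, with the line of equal change. Filled points differ between SD and LD with an adjusted p under 0.05. MtELF4 and MtTOC1a lie above 0 in SD and below 0 in LD, while MtCMF9 and MtPIF3a lie near the line.

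Falls in both photoperiods without a called difference included MtPIF3a (-2.46 in SD and -2.15 in LD), MtCMF9 (-3.93 and -3.22), the AUX/IAA gene Medtr2g101500 (-2.12 and -2.001) and the thaumatin gene Medtr5g010635 (-4.36 and -4.37), and MtCOLk and MtCBL2 rose in both. The greatest differences among described genes were those of the P450 gene Medtr4g025970 (7.44, edgeR adjusted p = 0.00344), Medtr3g462220 (7.31, edgeR adjusted p = 4.3e-07), MtCOLe (6.09, edgeR adjusted p = 2.3e-06) and MtELF4 on the positive side. On the negative side they were the nucleic acid-binding gene Medtr5g094440 (-4.43, edgeR adjusted p = 0.00912), the translocator gene Medtr2g022700 (-4.10, edgeR adjusted p = 0.00044), the pectinesterase Medtr8g102380 (-4.02, edgeR adjusted p = 0.00013) and the glucosyltransferase Medtr3g435310 (-4.02, edgeR adjusted p = 0.0007). Medtr8g102380 had 119, 144 and 68.02 counts at ZT2 and 7.07, 11.01 and 2.603 at ZT4 in SD, and means of 175 and 179.9 in LD. Others of these differences rest on few counts. For Medtr4g025970 the SE was 1.67, and the LD means were 1.78 at ZT2 and 0.85 at ZT4. In SD, Medtr5g094440 had 30 counts over the ZT2 libraries and 3 over those at ZT4 (ratio 12.7, 95% counting interval 3.94 to 64.9). Medtr3g435310 had 42 and 3 (ratio 17.8, interval 5.67 to 89.5), and neither of these 2 genes was DE.

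The preceding step in SD, from ZT0 to ZT2 within experiment 1, passed for 11577 of 28404 genes (40.8%), 5822 (20.5%) higher and 5755 (20.3%) lower. That comparison shares the ZT2 libraries with the one described here, so only group values are set side by side above, and no share of common genes is drawn.

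Gene length was measured as a property on which the library kits could differ. Over 19534 genes with a mean normalised count above 10, the length ratio (estimated count over TPM) had a Spearman rho of -0.0973 with the SD change, -0.208 with the LD change and -0.0553 with the SD change from ZT0 to ZT2, which lies within 1 kit. Of 5 equal groups by length, the shortest genes had a median SD change of 0.155, with 30.3% higher and 15.6% lower, and the longest a median of -0.026, with 23.9% and 25.6%. These are values across genes, which are not independent replicates, and the part of the kits in them was not tested.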

How the data were processed

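RNA-Seq was made from leaves of SD and LD plants, 18 libraries in 6 groups of 3. The authors trimmed reads with BBDuk, quantified them with Salmon 0.8.2 on the Mt4.0v2 transcripts and summed them by gene with tximport. The deposited values are estimated counts, neither scaled nor whole, and TPM, which sum to 1000000 per library, for 50444 genes. None of these identifiers matched the RefSeq table at hand (0 of 50444), so names come from the study's candidate list and descriptions, held for 4414 genes, from its supplement. Promoter sequences were not used here.

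Estimated counts were rounded and fitted in R 4.3.3 with edgeR 4.0.16 (glmQLFit and glmQLFTest, TMM, 1 mean per group over all 18 libraries, prior count 0.125). A gene entered a comparison if its counts there totalled more than 1. Benjamini-Hochberg adjustment ran over the genes of each comparison, with 0.05 as threshold. DE genes also had a log2 change above 1 in size and a mean normalised count above 10. A floor of 3 counts per library was used for genes at 0, and ratios resting on 1 to 3 counts have exact 95% counting intervals. Counting intervals do not cover PCR duplication.

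The members and lists were chosen with earlier results of these data known. Genes were named by a rule: in each candidate class up to 4 called genes a direction with the greatest change, and all photoreceptor, clock and GI, FKF1 and ZTL genes; the 8 most extreme rises and falls with a description and separate groups, and the 2 most extreme whatever the description; the 5 most abundant DE genes a direction; the 4 described genes a direction with the greatest SD to LD difference; and up to 2 called genes a direction in each description list. Not each gene the rule gives is shown. The 43 varying genes are those whose deviations from group means correlated above 0.95 with those of Medtr4g006070, among genes with a mean normalised count above 50.

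Alternatives were DESeq2 1.42.0, its size factors or upper-quartile scaling in edgeR, an effective-length offset, filterByExpr, fewer libraries in the fit, a replicate block, thinning of counts to the smallest library, limma 3.58.1 on log2(TPM + 1) and log2(TPM + 0.1), a prior count of 2, other DE thresholds, and each library left out. Same-numbered libraries are different plants. The fit was tested on simulated data. The authors' own tables of LD to SD comparisons supplied descriptions, and so decided which genes could enter the description lists or be named as described, and none of their fold changes or p-values was used.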

Additional observations from a re-analysis of the deposited data

Results flagged for a closer look

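For 65 of the 106 genes named above, the change from ZT2 to ZT4 differed between SD and LD by the test of the difference itself (edgeR, adjusted p under 0.05), against 14.6% of all genes tested. The values below are the SD change minus the LD change on the log2 scale. The fitted changes of 23 of the 65 genes had opposite signs in SD and LD. That number counts genes whether or not the LD change passed, and includes some where it did not, such as MtFKF1 (-0.10 in LD). The named genes were chosen in part for large changes in SD or for this difference, so their number is a description. In LD the plants had also spent more days in LD at ZT4 than at ZT2, which cannot be told apart from time of day.

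Among clock and photoperiod genes the difference was 5.80 for MtELF4, 3.57 for MtFKF1, 3.01 for MtELF3a, 3.01 for MtTOC1a, 2.09 for MtPRR59a and 1.67 for MtTOC1b. It was smaller at 0.92 for MtGI, 0.89 for MtPRR59b and 0.63 for MtPRR37b, and negative at -2.27 for MtLHY, -0.98 for MtPRR37a and -2.79 for MtCDF5. Of the photoreceptors and their partners it was 1.501 for MtCRY2B, 1.04 for MtCRY2A and 0.93 for MtPHYA, and 0.59 for the SPA1-like gene Medtr8g027985.

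In the families with a B-box or CCT domain it was 6.09 for MtCOLe, 4.20 for Medtr2g073370 and 1.55 for Medtr1g109350, and -3.94 for Medtr4g046640, -2.76 for MtCMF12, -1.68 for Medtr4g008050, -1.42 for MtCMF10 and -0.55 for MtCOLb. Other candidate regulators gave 1.48 for Medtr5g095740, 1.33 for MtTOE1a, 1.01 for MtCBL1 and -2.16 for MtCBL11.

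Of the most extreme described genes, the difference was 7.44 for Medtr4g025970, 7.31 for Medtr3g462220, 4.26 for Medtr7g009930, 3.89 for Medtr6g039440, 3.67 for Medtr3g099150 and 3.01 for Medtr5g015680, and -4.43 for Medtr5g094440, -4.10 for Medtr2g022700, -4.02 for Medtr8g102380, -4.02 for Medtr3g435310 and -3.64 for Medtr1g087920. The values of Medtr4g025970, Medtr5g094440 and Medtr3g435310 rest on few counts, as given above. The abundant genes gave 2.65 for Medtr1g105480, 1.79 for Medtr1g087030, 1.77 for Medtr2g079710, 1.64 for Medtr7g015340, 0.74 for Medtr3g030860 and -0.73 for Medtr4g071860.

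In the starch genes it was 2.55 for Medtr5g013620, 2.23 for Medtr3g462340, -2.37 for Medtr2g020240 and -0.92 for Medtr2g089030, and in the flavonoid and phenylpropanoid genes 2.87 for Medtr5g048470, -2.49 for Medtr3g025260, -1.24 for Medtr5g007713 and -0.94 for Medtr5g075450. The cell wall genes gave 0.83 for Medtr5g041700, -3.31 for Medtr2g089140 and -2.82 for Medtr3g084630, and the histone and cyclin genes 1.002 for Medtr1g070440, -0.82 for Medtr1g070390, -1.34 for Medtr4g071150 and -2.87 for Medtr7g089080. The heat shock genes gave 4.14 for Medtr1g038430 and 2.69 for Medtr5g091960, the oxygen-evolving enhancer genes 0.998 for Medtr2g082580 and 0.98 for Medtr5g041910, and the leghemoglobin gene -3.06 for Medtr5g080400.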

How the results depend on the processing

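The counts of genes called, of DE genes, of candidate genes called and of genes with a called SD to LD difference stayed within 1.5 times of 10575, 3221, 83 and 4430 under each alternative run, with 2 exceptions that both concern DE genes. Limma on log2(TPM + 1) gave 1905 DE genes, on a scale that understates the change of low genes, and a minimum log2 change of 1.5 gave 1565. Leaving out 1 library at a time gave 9118 to 9396 genes called, 3061 to 3215 DE genes, 78 to 84 candidate genes and 3582 to 4599 genes with a called difference. Same-numbered SD libraries of ZT2 and ZT4 did not deviate together (r of -0.0112, -0.0319 and 0.0273), so the numbers do not pair the libraries. With the replicate block, the 6-library fit called 11515 genes, 3288 DE genes and 93 candidate genes, against 11813, 3287 and 95 without it, and the 12-library fit called 4805 differences between SD and LD, against 5084.

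Of the 154 genes tested among those chosen by the naming rule, none reversed in direction under any alternative where either value was called. Calls were lost most often by Medtr5g086690 (10 of 17 alternatives), Medtr3g019080, MtFTa2 and tubulin (8 of 18 each) and MtLUXb (7 of 18). The removal of the 43 varying genes was chosen after seeing the data. With 3 libraries a group, each a pool of 2 leaves, p-values rest on the spread between pools, estimated in the main fit over all 6 groups. Spread was unlike in the groups compared. The mean chi-square per gene between replicate pairs, the 43 varying genes included, was 11.4 to 39.3 in SD ZT2 and 2.39 to 3.57 in SD ZT4. Each timepoint came from 1 experiment, and no setting separates time of day from experiment, age and kit.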
